A study of Mus musculus with 6 samples.

Results

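The mitochondrial carrier family Slc25 was followed in interscapular brown adipose tissue (BAT) of mice fed a low-fat diet (LFD) or a high-fat diet (HFD). Its members were taken by symbol alone, as every gene named Slc25a followed by a number. There were 47 such genes among the 47729 genes of the deposited tables, and 42 of them passed the filter on low counts and were tested, among 17668 tested genes. Uncoupling proteins 1 to 3, which belong to the same protein family but carry other symbols, were left to a list of related genes.

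All 6 mice were wild type C57BL/6J males, fed from 6 to 10 weeks of age. The 3 HFD mice received a diet labelled as 45% high-fat for 4 weeks, and the 3 LFD mice received a standard rodent diet over the same weeks. The mice were housed singly at room temperature, and the right interscapular BAT of each mouse gave 1 library of total RNA depleted of ribosomal RNA. In each diet the mice with the greatest, the medium and the least fat mass had been sequenced, so the 3 mice of a diet were chosen to differ, and the sources used here do not say which replicate number is which mouse. Mice are called HFD 1 to 3 and LFD 1 to 3 by the replicate numbers of the labels.

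Mitochondrial carriers are small proteins of the inner mitochondrial membrane that share a fold of repeated membrane-spanning helices around a central substrate site. Most work as exchangers, moving a nucleotide, phosphate, carboxylate, amino acid or cofactor inward against another outward, and so link the metabolism of the cytosol to that of the matrix. In brown adipocytes they supply fatty acyl groups, cofactors and phosphate to a matrix that burns fat for heat, and the uncoupling protein Ucp1 that makes this heat is itself a member of the carrier family.

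The libraries held 17156991 to 21603487 rounded counts. Genes encoded on mitochondrial DNA took 8.50% to 22.7% of the counts in HFD and 3.87% to 13.8% in LFD, with mouse 1 highest and mouse 3 lowest in both diets. The tissue label was checked against markers. The summed level of 13 brown adipocyte markers was 6273 to 13621 TPM (transcript reads per unit of length, scaled to the same total in each library) in HFD and 3632 to 13238 TPM in LFD, so those ranges overlapped. Of these 13 markers 10 had a positive log2 fold change (HFD over LFD), with a median of 1.39, while the abundant Fabp4 and Adipoq had -0.35 and -1.19. Ucp1, the defining gene of brown fat, was at 11.0 TPM in LFD 2. The summed level of 20 skeletal muscle markers was 21.3 to 376 TPM in HFD and 2174 to 15116 TPM in LFD. None of those 20 muscle markers was at 0 TPM in every HFD mouse, while Ampd1 was at 0 TPM in HFD 3. All 20 had a negative log2 fold change, 19 of them with every HFD mouse below every LFD mouse. Those 19 had log2 fold changes of -6.86 (Tcap, a sarcomere protein) to -4.95 (Myh2, a myosin heavy chain), all with edgeR adjusted p above 0.05, while 16 of the 20 passed an adjusted p under 0.05 when edgeR compared same-numbered mice (a replicate block) and 19 in DESeq2. LFD 2 had the highest muscle sum. Summed T and NK cell markers were also apart, at 15.4 to 48.2 TPM in HFD and 1.99 to 14.7 TPM in LFD (11 of 11 tested positive), whereas summed macrophage markers overlapped (2266 to 4960 and 693 to 5128 TPM). In such bulk tissue, fewer cells of a type and less RNA per cell cannot be told apart.

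The family was broadly expressed. A mean of at least 100 TPM over the 6 mice was reached by 9 members, 19 lay from 10 to under 100 TPM, 10 from 1 to under 10 TPM and 9 under 1 TPM. Summed over the 47 members, the level was 1880, 2419 and 1570 TPM in HFD 1, 2 and 3 and 4435, 2617 and 1633 TPM in LFD 1, 2 and 3. LFD 1 stood above the others in this sum, and the diets overlapped. The 5 highest members of a mouse held 53.3% to 54.7% of the family's TPM in HFD and 58.7% to 72.7% in LFD.

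The members at the top of the order differed between mice. Slc25a5, an ADP/ATP carrier, ranked first in all 3 HFD mice. Slc25a1, the citrate carrier, ranked first in LFD 1 and LFD 2, and Slc25a3, the phosphate carrier, ranked first in LFD 3. Among the 38 members with a mean of at least 1 TPM, the highest mouse over the lowest of the same diet had a median of 1.83 in HFD and 2.09 in LFD, and 25 of the 38 spread wider in LFD. The posterior SD that RSEM gives was at most 11.3% of the count for these 38 members. It was 0 for Slc25a29, which had 18 counts in HFD 3, so it does not cover the error of low counts. RSEM's interval for TPM was wide for some of them, as for Slc25a13 in LFD 1 (0.384 to 1.47 TPM).

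**Figure D1:**
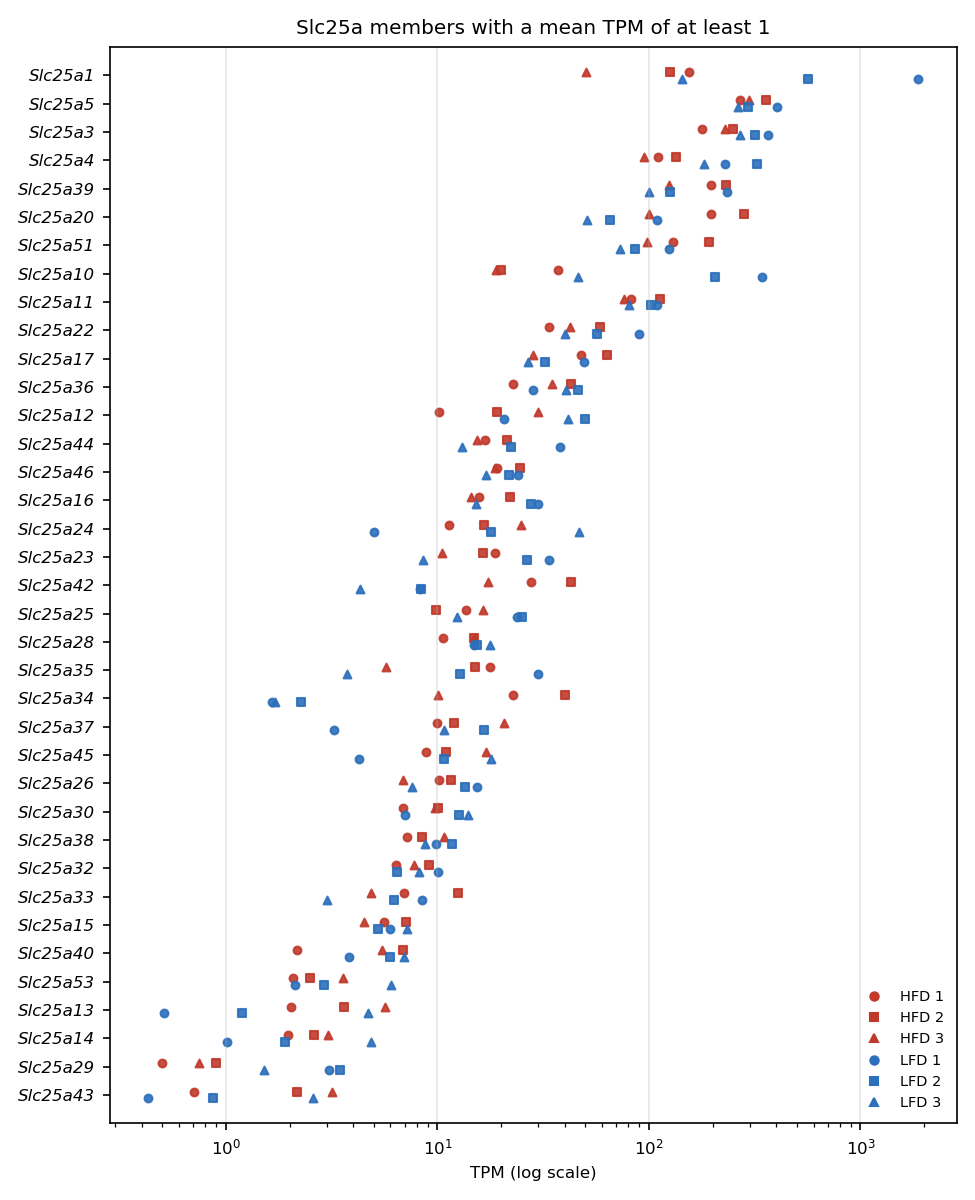
Level in TPM (log scale) of Slc25a members with a mean of at least 1 TPM, 1 row per gene in order of the mean, with 1 marker per mouse (red HFD, blue LFD, shape for replicate number). The diets overlap for most members, while Slc25a34 and Slc25a42 lie higher in all 3 HFD mice, and Slc25a1 reaches 1881 TPM in LFD 1.

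Counted over the family, no member was called. The main test was edgeR's quasi-likelihood test on rounded expected counts, HFD against LFD, with Benjamini-Hochberg adjustment over all 17668 genes. At an adjusted p under 0.01 with an absolute log2 fold change above 1.5, 0 of 42 members and 0 genes in all (0%) were called, and at an adjusted p under 0.05 again 0 members and 0 genes (0%). The smallest edgeR adjusted p was 0.170 over all genes, and the same over the members.

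Without adjustment, 2 members were higher in HFD at p under 0.05 in edgeR (Slc25a34 and Slc25a42, 4.76% of the members against 3.86% of all tested genes). A further 4 were lower (Slc25a1, Slc25a10, Slc25a12 and Slc25a29, 9.52% against 6.62%). In log2 CPM (counts scaled to library size with TMM factors, not to length), every HFD mouse lay above every LFD mouse for 3 members (Slc25a13, Slc25a34 and Slc25a42, 7.14% against 6.72%) and below for 4 (Slc25a12, Slc25a29, Slc25a47 and Slc25a53, 9.52% against 9.23%). These shares were near those of all genes. The higher count at p under 0.05 became 9 without LFD 1 and 4 without LFD 3, and the lower count became 1 without HFD 2 or without HFD 3 and 2 without LFD 1. Members wholly above became 11 without LFD 1, 7 without LFD 3 and 5 without HFD 3 or without LFD 2. Members wholly below became 7 without HFD 1 and 8 without LFD 3. With a mouse left out the diets separate more easily, and the matching shares of all genes are not given. No result about the members is therefore read from these leave-one-out counts.

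Of the 42 members, 23 had a log2 fold change above 0 (54.8%), against 45.6% of all tested genes. The median was 0.01 over the members and -0.05 over all genes. On the TPM scale 17 of the 42 were above 0, with a median of -0.10 on log2(TPM + 1), where the median of all genes was also lower by 0.13. With no normalization factors 26 were above 0, without LFD 1 29 were (median 0.31), and without LFD 3 17 were (median -0.17).

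Other fits called a few members. With the replicate number as a block, which fits the difference within same-numbered mice, 2 members were higher in HFD at an edgeR adjusted p under 0.05 (Slc25a34 and Slc25a42), against 0.164% of all genes. That pairing was inferred from correlations in these same data and is not stated by the labels. DESeq2 called the same 2 as higher (1.1% of its tested genes were) and Slc25a10 as lower (2.61% of its tested genes were), of 43 members with an adjusted p.

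**Figure D2:**
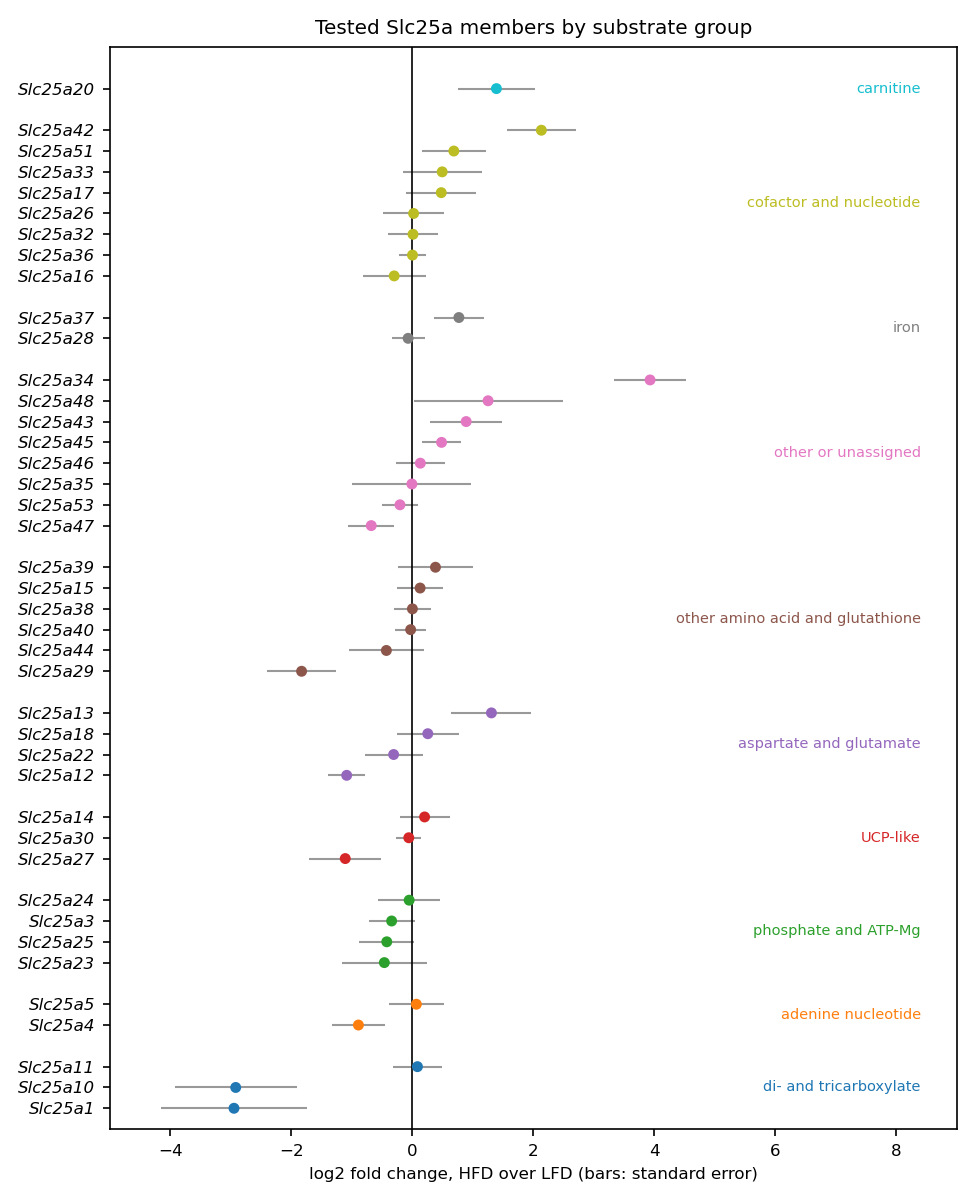
Log2 fold change (HFD over LFD) of tested members by substrate group, with points for the edgeR estimate and bars for its standard error. Slc25a34 and Slc25a42 lie farthest to the right and Slc25a1 and Slc25a10 farthest to the left. No member, and no tested gene, passed an edgeR adjusted p under 0.05.

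Slc25a34, a carrier with no substrate assigned in the list of groups used here, had the largest log2 fold change of the family. Its gene lies at chr4:141618824-141623821 on the minus strand of GRCm38, with no other annotated gene across it. The 150 bases before its RefSeq start (GRCm38.p6, chr4:141623835-141623984, minus strand, read 5′ to 3′ toward the start) are shown because this was the member with the largest difference and the only one whose promoter window held the nuclear receptor core motif AAGGTCA. Capitals mark that motif, which reads as its reverse complement on the gene's strand with its first base 119 bases upstream.
Slc25a34: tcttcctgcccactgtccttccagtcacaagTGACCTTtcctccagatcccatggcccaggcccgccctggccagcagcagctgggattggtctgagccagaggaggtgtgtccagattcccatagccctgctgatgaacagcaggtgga
The level of Slc25a34 was 22.8, 40.0 and 10.1 TPM in HFD 1, 2 and 3 and 1.65, 2.27 and 1.71 TPM in LFD 1, 2 and 3. All 3 HFD mice were above all 3 LFD mice, with HFD 3 the lowest of its diet and a mean of 24.3 ± 15.0 (SD, n = 3) against 1.88 ± 0.34 TPM. The counts behind these levels were 454 to 1661 in HFD and 53 to 82 in LFD. HFD exceeded LFD by a log2 fold change of 3.93 (SE 0.60), a 15.2-fold higher level in HFD, at an edgeR p of 0.0004 and an adjusted p of 0.170. Within same-numbered mice (replicate block) it was 3.74 at an edgeR adjusted p of 0.0285, and in DESeq2 it was 3.93 at an adjusted p of 2.69e-08. Leaving out 1 mouse at a time, it stayed between 3.62 and 4.34. The brown adipocyte markers (median log2 fold change 1.39) and the muscle markers differed in value between diets beside Slc25a34, Slc25a42 and Slc25a20, and their part in these differences was not tested.

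Slc25a42, which carries coenzyme A into the matrix in exchange for adenine nucleotides, was the second member in this direction (chr8:70184340-70212305, minus strand). Its level was 27.8, 42.9 and 17.3 TPM in HFD 1, 2 and 3 and 8.31, 8.36 and 4.32 TPM in LFD 1, 2 and 3. The lowest HFD mouse was above the highest LFD mouse. This gave a log2 fold change of 2.13 (SE 0.57), a 4.38-fold higher level in HFD, at an edgeR p of 0.0078 and an adjusted p of 0.265. With the replicate block it was 2.17 at an edgeR adjusted p of 0.0287, and DESeq2 gave an adjusted p of 0.0180. Leaving out single mice gave 1.78 to 2.65.

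The carnitine-acylcarnitine carrier Slc25a20 (chr9:108662088-108684641, plus strand) brings fatty acyl groups across the inner membrane for oxidation. Its level was 197, 282 and 100.3 TPM in HFD 1, 2 and 3 and 109.5, 65.8 and 51.0 TPM in LFD 1, 2 and 3. HFD 1 and HFD 2 were above every LFD mouse, and HFD 3 lay under LFD 1. The log2 fold change was 1.39 (SE 0.63, edgeR adjusted p = 0.509), and in each same-numbered pair the HFD mouse was the higher. It was 2.14 without LFD 1 and 1.06 without LFD 3.

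The ranges of the remaining cofactor and nucleotide carriers overlapped between diets. With Slc25a42 there were 9 of them, all tested, of which 8 had a positive log2 fold change, 6 with mitochondrially encoded genes left out of the library size and 5 on the TPM scale. Their median was 0.48, and with single mice left out it ranged from 0.08 (5 of 9 positive, without LFD 3) to 1.22 (9 of 9 positive, without LFD 1). Their summed level was 428, 599 and 303 TPM in HFD 1, 2 and 3 and 437, 283 and 206 TPM in LFD 1, 2 and 3. HFD 2 had the highest sum and LFD 3 the lowest.

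Slc25a51, which imports NAD+, was at 131, 192 and 97.7 TPM in HFD 1, 2 and 3 and at 125, 86.2 and 72.7 TPM in LFD 1, 2 and 3. LFD 1 lay close to HFD 1, and the log2 fold change was 0.68 (SE 0.52, edgeR adjusted p = 0.744).

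The pyrimidine nucleotide carriers Slc25a33 and Slc25a36 were lower in level. Slc25a33 was at 6.95, 12.4 and 4.86 TPM in HFD 1, 2 and 3 and at 8.49, 6.26 and 3.01 TPM in LFD 1, 2 and 3, with a log2 fold change of 0.49 (SE 0.65). Slc25a36 was at 22.8, 42.6 and 34.7 TPM in HFD 1, 2 and 3 and at 28.2, 46.4 and 40.6 TPM in LFD 1, 2 and 3, with one of 0.00 (SE 0.23). Both ranges overlapped. Slc25a17, a peroxisomal carrier of coenzyme A, NAD+ and FAD, had a log2 fold change of 0.48 (SE 0.58) with 28.4 to 63.5 TPM in HFD and 26.9 to 49.3 TPM in LFD. In the same group, Slc25a26 for S-adenosylmethionine, Slc25a32 for folate and Slc25a16 had log2 fold changes of 0.02, 0.01 and -0.30.

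On the other side of the family lay the carboxylate carriers that move citrate and dicarboxylates. Slc25a1, which exports citrate to the cytosol where it is cleaved for fatty acid synthesis, lies at chr16:17925223-17928219 on the minus strand. It was at 155, 125 and 50.4 TPM in HFD 1, 2 and 3 and at 1881, 568 and 143 TPM in LFD 1, 2 and 3. LFD 1 and LFD 2 were above every HFD mouse, LFD 3 lay under HFD 1, and each HFD mouse was below the LFD mouse of its number. The gene took 42.4% of the family's TPM in LFD 1, 21.7% in LFD 2 and 8.77% in LFD 3, against 3.21% to 8.24% in HFD. Its log2 fold change was -2.95 (SE 1.20), at an edgeR p of 0.0452 and an adjusted p of 0.465, and it was -1.06 without LFD 1. The replicate block gave -2.15 at an edgeR adjusted p of 0.147.

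Slc25a10, the dicarboxylate carrier that exchanges malate or succinate for phosphate, lies at chr11:120491840-120499187 on the plus strand, with the gene Gm11788 across it on the other strand. It was at 37.1, 20.1 and 18.9 TPM in HFD 1, 2 and 3 and at 344, 206 and 46.3 TPM in LFD 1, 2 and 3. In TPM all HFD mice were below all LFD mice, while in log2 CPM HFD 1 (6.27) lay above LFD 3 (5.49). Its log2 fold change was -2.92 (SE 1.01), a 7.57-fold higher level in LFD, at an edgeR p of 0.0243 and an adjusted p of 0.388. DESeq2 called this member at an adjusted p of 0.0376, and the replicate block gave -2.53 at an edgeR adjusted p of 0.115. Without LFD 1 the log2 fold change was -1.73.

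Slc25a11, the oxoglutarate carrier that exchanges 2-oxoglutarate for malate in the malate-aspartate shuttle, did not share that pattern of values. It was at 82.4, 113 and 76.4 TPM in HFD 1, 2 and 3 and at 109.7, 102 and 80.1 TPM in LFD 1, 2 and 3. The ranges overlapped and the log2 fold change was 0.08 (SE 0.41, edgeR adjusted p = 0.974), with a sign that turned to -0.11 on log2(TPM + 1). Slc25a21, the oxodicarboxylate carrier, had 0 to 5 counts in a mouse and was not tested. Summed, the 4 carboxylate carriers were at 275, 258 and 146 TPM in HFD 1, 2 and 3 and at 2334, 876 and 270 TPM in LFD 1, 2 and 3, so LFD 3 lay within the HFD range.

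**Figure D3:**
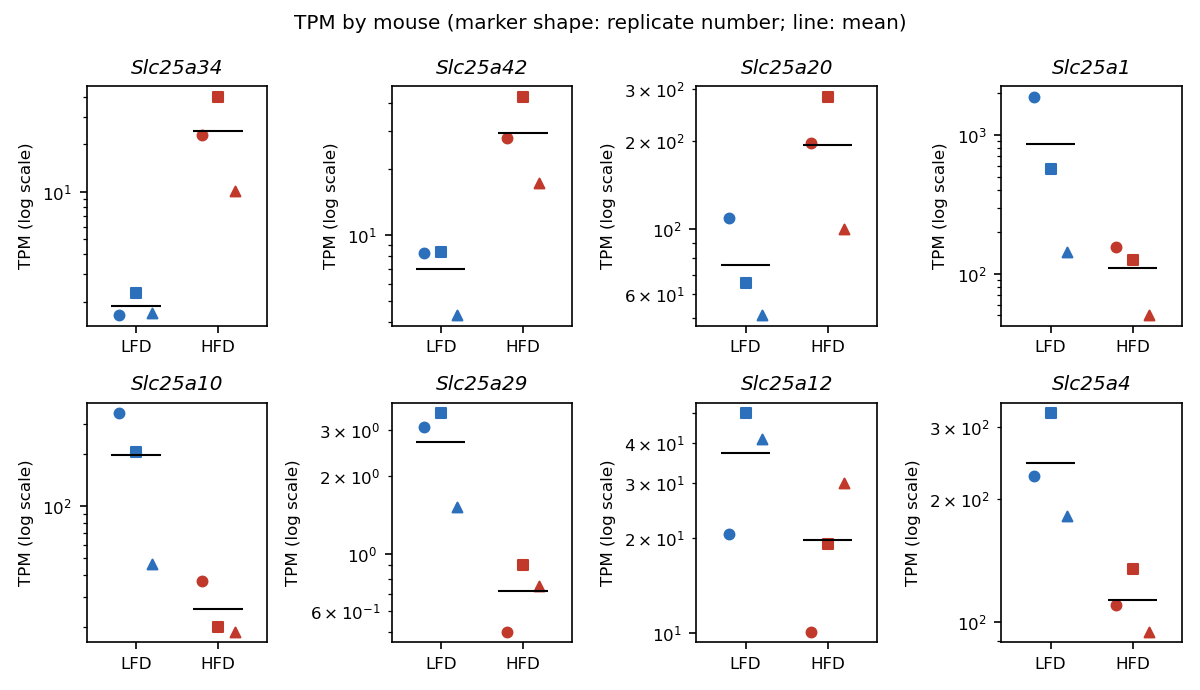
TPM (log scale) of 8 members in each mouse by diet, with marker shape for the replicate number and a line at the mean of the diet. Slc25a34 and Slc25a42 have all 3 HFD mice above the LFD mice, Slc25a10, Slc25a29 and Slc25a4 have all 3 below, and Slc25a20, Slc25a1 and Slc25a12 overlap in TPM.

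The ADP/ATP carriers export ATP made in the matrix in exchange for ADP, and their isoforms differ by tissue. Slc25a4 (chr8:46206797-46211284, minus strand), the isoform best known from heart and skeletal muscle, was at 109.9, 135 and 94.9 TPM in HFD 1, 2 and 3 and at 228, 324 and 182 TPM in LFD 1, 2 and 3. All HFD mice were below all LFD mice in TPM, and they overlapped in log2 CPM. On counts the log2 fold change was -0.89 (SE 0.43, edgeR adjusted p = 0.539). Slc25a5 (chrX:36795651-36798807, plus strand), the isoform of most other tissues, was at 269, 357 and 297 TPM in HFD 1, 2 and 3 and at 402, 295 and 263 TPM in LFD 1, 2 and 3. Its ranges overlapped and its log2 fold change was 0.07 (SE 0.46, edgeR adjusted p = 0.982), or -0.04 on log2(TPM + 1). A processed copy annotated as Slc25a5-ps had 1 count over all libraries. Slc25a31, the isoform of testis, had at most 3 counts in a mouse.

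Set against each other within a mouse, Slc25a4 over Slc25a5 gave TPM ratios of 0.409, 0.377 and 0.319 in HFD 1, 2 and 3 and of 0.568, 1.10 and 0.692 in LFD 1, 2 and 3. All 3 HFD mice were below all 3 LFD mice. The mean log2 ratio was -1.45 ± 0.18 in HFD and -0.40 ± 0.49 in LFD (SD, n = 3), a difference of -1.04 with a two-sided exact permutation p of 0.1, the smallest that 3 against 3 mice can give, and 0.35 after Benjamini-Hochberg adjustment over the 7 ratios compared. The mouse with the highest ratio, LFD 2, was also the one with the highest summed muscle markers. The muscle sums were 6407, 15116 and 2174 TPM in LFD 1, 2 and 3, so LFD 1 had a higher sum but a lower ratio than LFD 3. In HFD the highest muscle sum was in HFD 2 (376 TPM) and the highest ratio in HFD 1. The part of muscle RNA in the difference between diets was not tested.

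The aspartate/glutamate carriers Slc25a12 and Slc25a13 are calcium-regulated and feed the malate-aspartate shuttle, Slc25a12 being the form of brain and muscle and Slc25a13 that of liver. Slc25a12 (chr2:71271063-71367749, minus strand, with Gm13641 on the other strand) was at 10.1, 19.1 and 29.8 TPM in HFD 1, 2 and 3 and at 20.7, 49.7 and 41.3 TPM in LFD 1, 2 and 3. HFD 3 lay above LFD 1 in TPM, while in log2 CPM all HFD mice (3.85 to 4.62) were below all LFD mice (5.03 to 5.75). Its log2 fold change was -1.09 (SE 0.31), a 2.12-fold higher level in LFD, at an edgeR p of 0.0106 and an adjusted p of 0.295. Slc25a13 (chr6:6041218-6217173, minus strand) had values in the other direction, at 2.04, 3.60 and 5.67 TPM in HFD 1, 2 and 3 and at 0.51, 1.19 and 4.68 TPM in LFD 1, 2 and 3. HFD mice overlapped LFD mice in TPM and lay above them in log2 CPM, HFD 1 at 2.79 against 2.69 in LFD 3. Its log2 fold change was 1.31 (SE 0.66, edgeR adjusted p = 0.559), or 2.30 without LFD 3.

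As a ratio of TPM, Slc25a12 over Slc25a13 was 4.97, 5.32 and 5.26 in HFD 1, 2 and 3 and 40.6, 41.8 and 8.82 in LFD 1, 2 and 3. The HFD mice were nearly equal and all below the LFD mice, in which LFD 3 stood apart from LFD 1 and LFD 2. The high ratios of LFD 1 and LFD 2 rested on 15 and 46 counts of Slc25a13. It had 130 counts in LFD 3 and 120 to 231 in HFD. RSEM's interval for Slc25a13 in LFD 1 was 0.384 to 1.47 TPM, so the size of that ratio is uncertain. The difference in log2 ratio was -2.25 (HFD 2.37 ± 0.05, LFD 4.62 ± 1.28, SD, n = 3), again at the smallest exact permutation p of 0.1 and an adjusted value of 0.35. Here too the summed muscle markers were higher in every LFD mouse, and their part was not tested.

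None of the other ratios between carriers of like substrates separated the diets. Slc25a22 over Slc25a18, the glutamate carriers, differed by -0.58 in log2 ratio (exact permutation p = 0.8). Slc25a22 was at 33.7, 58.6 and 42.4 TPM in HFD 1, 2 and 3 and at 89.4, 56.6 and 40.1 TPM in LFD 1, 2 and 3, while Slc25a18 was at 0.30, 0.82 and 0.66 TPM in HFD 1, 2 and 3 and at 0.21, 1.02 and 0.55 TPM in LFD 1, 2 and 3. The log2 fold changes of these overlapping genes were -0.31 (SE 0.48) and 0.25 (SE 0.52). Slc25a37 over Slc25a28, the mitoferrins that import iron, was 0.940, 0.806 and 1.38 in HFD 1, 2 and 3 and 0.219, 1.07 and 0.607 in LFD 1, 2 and 3 (exact permutation p = 0.3). The low value of LFD 1 came with 3.26 TPM of Slc25a37, the mitoferrin of red cell precursors, against 9.98, 12.0 and 20.6 TPM in HFD 1, 2 and 3 and 16.6 and 10.8 TPM in LFD 2 and 3. LFD 1 was also the mouse with the lowest summed red cell markers (3280 TPM, against 5851 to 18047 TPM in the other 5). HFD 1 had the highest red cell sum but the lowest Slc25a37 of its diet. The part of red cell RNA was not tested.

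For Slc25a37 alone the log2 fold change was 0.77 (SE 0.41, edgeR adjusted p = 0.583), and for Slc25a28, at 10.6, 14.9 and 14.9 TPM in HFD 1, 2 and 3 and 14.9, 15.5 and 17.7 TPM in LFD 1, 2 and 3, it was -0.07 (SE 0.27). Slc25a39 over Slc25a40, the glutathione carriers, was 90.4, 33.6 and 22.8 in HFD 1, 2 and 3 and 60.9, 21.1 and 14.5 in LFD 1, 2 and 3, with mouse 1 highest in each diet (exact permutation p = 0.5). Slc25a25 over Slc25a24 (exact permutation p = 0.7) and Slc25a33 over Slc25a36 (exact permutation p = 0.3) also overlapped. Adjusted over the 7 ratios, these p-values were 0.525 to 0.8.

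**Figure D4:**
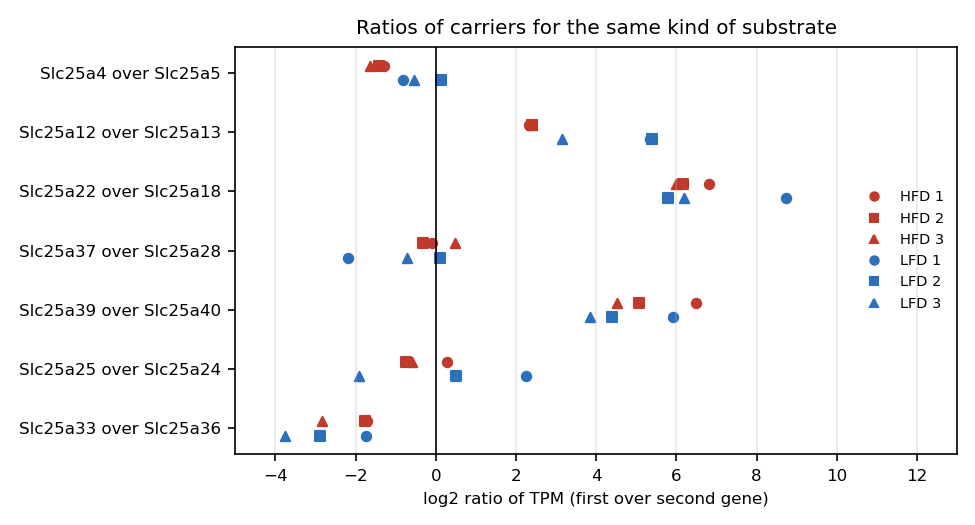
Log2 ratio of TPM of the first over the second carrier of each of the 7 pairs in each mouse (red HFD, blue LFD, shape for replicate number). The HFD mice lie to the left of the LFD mice for Slc25a4 over Slc25a5 and for Slc25a12 over Slc25a13, and the diets overlap in the other 5 pairs.

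Phosphate and ATP-Mg carriers set the pool of phosphate and adenine nucleotides in the matrix. The phosphate carrier Slc25a3 (chr10:91116574-91124059, minus strand, with the small gene Gm24119 within it on the same strand) was at 178, 249.9 and 228 TPM in HFD 1, 2 and 3 and at 365, 318 and 269.6 TPM in LFD 1, 2 and 3. All HFD mice were below all LFD mice in TPM but not in log2 CPM, and the log2 fold change was -0.34 (SE 0.38, edgeR adjusted p = 0.847), or 0.12 without LFD 1. Its promoter held an NRF1-type motif (GCGCANGCGC, read on the opposite strand), shown in capitals with 8 bases on each side because no other member of at least 100 TPM had a match to any motif searched. It lies at chr10:91124164-91124189 on the gene's minus strand of GRCm38.p6, with the motif's first base 214 bases before the start.
Slc25a3: ttggatctGCGCCTGCGCagtaggaa
The 3 tested calcium-dependent ATP-Mg carriers had log2 fold changes of -0.46 (Slc25a23), -0.42 (Slc25a25) and -0.05 (Slc25a24, or 0.18 with the replicate block), so the 4 tested members of the group were all negative, with a median of -0.38. Without LFD 1, 3 of the 4 were positive and the median was 0.08. Slc25a24 varied widely within LFD, at 4.99, 17.9 and 46.6 TPM in LFD 1, 2 and 3 against 11.3, 16.6 and 24.9 TPM in HFD 1, 2 and 3. Slc25a25 was at 13.6, 9.83 and 16.5 TPM in HFD 1, 2 and 3 and at 23.8, 25.2 and 12.4 TPM in LFD 1, 2 and 3.

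Among the remaining amino acid carriers, Slc25a29, which carries basic amino acids such as arginine and lysine, had the lowest log2 fold change. It was at 0.50, 0.90 and 0.75 TPM in HFD 1, 2 and 3 and at 3.07, 3.48 and 1.51 TPM in LFD 1, 2 and 3. Every HFD mouse was below every LFD mouse, on 18 to 21 counts in HFD and 28 to 88 in LFD. The log2 fold change was -1.83 (SE 0.57), a 3.56-fold higher level in LFD, at an edgeR p of 0.0161 and an adjusted p of 0.345, and it was -1.28 without LFD 1. Its neighbour Slc25a47 starts 162 bases away in the opposite direction on chromosome 12 (Slc25a29 at chr12:108825873-108835883, minus strand, and Slc25a47 at chr12:108836046-108856815, plus strand). Slc25a47 was also lower in every HFD mouse, at 0.49 to 0.80 TPM against 1.05 to 1.67 TPM, with a log2 fold change of -0.68 (SE 0.38, edgeR adjusted p = 0.615).

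The glutathione carrier Slc25a39 was at 197, 231 and 124 TPM in HFD 1, 2 and 3 and at 233, 126 and 100.4 TPM in LFD 1, 2 and 3, with overlapping ranges and a log2 fold change of 0.38 (SE 0.62, edgeR adjusted p = 0.910). Its relative Slc25a40 was at 2.18, 6.87 and 5.46 TPM in HFD 1, 2 and 3 and at 3.82, 5.98 and 6.93 TPM in LFD 1, 2 and 3, with a log2 fold change of -0.03 (SE 0.26). Slc25a44, a carrier of branched-chain amino acids known from brown fat, was at 16.8, 21.3 and 15.4 TPM in HFD 1, 2 and 3 and at 38.1, 22.3 and 13.1 TPM in LFD 1, 2 and 3. These ranges overlapped and its log2 fold change was -0.43 (SE 0.62), or 0.55 without LFD 1. Slc25a15, the ornithine carrier, and Slc25a38, a glycine carrier needed for heme synthesis, had log2 fold changes of 0.13 and 0.00.

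Among the carriers close in sequence to the uncoupling proteins, Slc25a27 was at 0.26, 0.65 and 0.37 TPM in HFD 1, 2 and 3 and at 0.41, 2.19 and 0.76 TPM in LFD 1, 2 and 3. LFD 2 alone exceeded 1 TPM, and the log2 fold change of -1.11 (SE 0.59, edgeR adjusted p = 0.588) was -0.32 without that mouse. Slc25a14 and Slc25a30 had log2 fold changes of 0.20 and -0.06.

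Of the carriers with other or unassigned roles, Slc25a48 was at 2.27, 1.20 and 0.73 TPM in HFD 1, 2 and 3 and at 1.46, 0.15 and 0.13 TPM in LFD 1, 2 and 3. LFD 2 and LFD 3 rested on 7 and 5 counts, and the log2 fold change of 1.25 (SE 1.23, edgeR adjusted p = 0.821) was 4.0 without LFD 1 and 0.28 without HFD 1. Slc25a43 was at 0.71, 2.17 and 3.18 TPM in HFD 1, 2 and 3 and at 0.43, 0.87 and 2.58 TPM in LFD 1, 2 and 3. Mouse 1 was lowest and mouse 3 highest in both diets, and the log2 fold change was 0.89 (SE 0.60, edgeR adjusted p = 0.694). Slc25a45, Slc25a46, Slc25a35 and Slc25a53 had log2 fold changes of 0.48, 0.13, -0.01 and -0.21. Slc25a46 works in the outer membrane, where it takes part in fusion and fission. The 5 members that were not tested, Slc25a2, Slc25a21, Slc25a31, Slc25a41 and Slc25a54, had at most 11 counts and 0.61 TPM in any mouse.

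Of the 5 listed carriers whose symbols fell outside the rule, all had a positive log2 fold change (4 on the TPM scale), with a median of 0.26 (1.12 without LFD 1, and 0.04 to 0.08 with 3 positive without HFD 1, LFD 2 or LFD 3). Ucp1 was above every Slc25a member in each HFD mouse. In each LFD mouse it was below Slc25a1, which was at 1881, 568 and 143 TPM in LFD 1, 2 and 3. Ucp1, which lets protons back into the matrix as heat is made, was at 2728, 4021 and 796 TPM in HFD 1, 2 and 3 and at 443, 11.0 and 76.0 TPM in LFD 1, 2 and 3. All HFD mice were above all LFD mice, at a log2 fold change of 3.67 (SE 1.56, edgeR adjusted p = 0.480). LFD 2, the lowest in Ucp1, was the mouse with the highest summed muscle markers (15116 TPM). LFD 1 had more summed muscle markers than LFD 3 (6407 against 2174 TPM) and also more Ucp1. The part of muscle RNA in the Ucp1 values was not tested. Ucp2 (log2 fold change 0.41, edgeR adjusted p = 0.758) was at 105.7, 148 and 209 TPM in HFD 1, 2 and 3 and at 59.0, 161 and 222 TPM in LFD 1, 2 and 3. Ucp3, an isoform of muscle and brown fat, was at 21.4, 38.3 and 12.4 TPM in HFD 1, 2 and 3 and at 35.7, 24.1 and 6.95 TPM in LFD 1, 2 and 3 (log2 fold change 0.10, edgeR adjusted p = 0.984). The ranges of both overlapped.

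No gene of the 17668 tested had an edgeR adjusted p under 0.05, so none could in the lists of genes that work with the carriers. Of 11 import proteins that bring carriers to the inner membrane, 8 had a positive log2 fold change, 6 on the TPM scale, with a median of 0.20. With single mice left out, this ranged from 5 positive (median -0.08, without LFD 3) to all 11 (median 0.68, without LFD 1). Their summed level was 421 to 522 TPM in HFD and 414 to 539 TPM in LFD, so it covered nearly the same range in both diets. The 3 channels of the outer membrane had a median of -0.19 (1 positive), the 2 pyruvate carrier subunits a median of -0.63 (0 positive, and 1 with the replicate block), and the 4 calcium uniporter proteins a median of -0.02 (1 positive, and 0 on the TPM scale). Without LFD 1 these lists turned, with 3 of 3 channels (median 0.14), 2 of 2 pyruvate carrier subunits (median 0.91) and 3 of 4 uniporter proteins (median 0.06) positive. Of 10 enzymes that make or use the carried substrates, 6 were positive with a median of 0.22 (with single mice left out, from -0.07 without LFD 3 to 0.84 without LFD 1), and 1 was higher in HFD at an unadjusted edgeR p under 0.05. That gene was Cpt1b, which makes acylcarnitines for Slc25a20, at 349, 493 and 163 TPM in HFD 1, 2 and 3 and at 121, 56.5 and 22.2 TPM in LFD 1, 2 and 3 (log2 fold change 2.48, edgeR adjusted p = 0.409). Acly, which cleaves the citrate that Slc25a1 exports, was at 334, 201 and 85.0 TPM in HFD 1, 2 and 3 and at 2913, 559 and 215 TPM in LFD 1, 2 and 3 (log2 fold change -2.54, edgeR adjusted p = 0.569). The diets did not overlap for Cpt1b in TPM but did in log2 CPM, and they overlapped for Acly on both scales. Both enzymes are named here after their values were seen.

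Promoter windows of 300 bases (250 before and 50 after the RefSeq start, GRCm38.p6) were at hand for 36 of the 47 members. That is 76.6%, under the 80% needed to give a share over the family, so only the matches are named. Searched on both strands, an ERR-type motif TCAAGGTCA was in 0.466% and a PPAR-type repeat AGGTCANAGGTCA in 0.0481% of the windows of 27025 genes, and neither was in a member's window. The core motif AAGGTCA, which the ERR-type motif contains, was in 5.38% of all windows and, among members, in that of Slc25a34. The NRF1-type motif was in 5.19% of all windows and in those of Slc25a3 and Slc25a31. No other member's window held any of these motifs, and a match of letters is not evidence of binding.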

How the data were processed

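Total RNA of BAT from 3 HFD and 3 LFD mice was depleted of ribosomal RNA and sequenced in single-end reads. Adapters were trimmed by the authors with Trimmomatic 0.36, and gene levels were estimated against GRCm38 by RSEM 1.3.0. The authors deposited raw expected counts, in which a read that matches several genes is split, and TPM, which divides by effective length and scales each library to a fixed total. Levels in TPM therefore move with the share of mitochondrially encoded RNA. Whether the counting used strand is not given in the sources used here, so reads of a member and of a gene on its other strand cannot be told apart. Besides Slc25a10 and Slc25a12, this holds for Slc25a11 (Rnf167), Slc25a18 (Atp6v1e1) and Slc25a25 (Naif1), among others.

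Samples were grouped by diet from their labels. Expected counts were rounded and tested in R 4.3.3 with edgeR 4.0.16 (quasi-likelihood test, TMM normalization, edgeR's filter on low counts, Benjamini-Hochberg adjustment over 17668 genes). The biological coefficient of variation was 0.448. Log2 CPM used a prior count of 2. Ratios of TPM were compared by two-sided exact permutation tests in scipy 1.17.1. DESeq2 1.42.0, limma 3.58.1 on log2(TPM + 1) and log2(TPM + 0.1), RLE size factors, no normalization factors, other filters on low counts (none, or at least 10 counts in every sample), mitochondrially encoded genes left out, the replicate block and each mouse left out were the alternatives. Tests were tried on simulated data with known changes.

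The labels number the mice 1 to 3 in each diet. Over 17668 genes, the deviations of same-numbered mice from their diet's mean correlated at r = 0.498, 0.229 and 0.522. Those of other pairs correlated at -0.528 to 0.0532. Deviations from a diet's mean cancel out over its mice, so the values of same-numbered and other pairs are not independent. The numbers were taken as pairs in the replicate block on these correlations, from the same data as the fit. Where the numbers come from is not stated, so p-values of the block rest on an assumed pairing. No pair of libraries of a diet was the same (chi-square over its degrees of freedom, 71.7 to 558). Separate mice are the replicates.

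Values are given for every mouse for the 10 members with the highest mean TPM, the 6 largest and 6 smallest log2 fold changes, members called in any fit, and members of the 7 ratios, except that 1 member is not reported here. The members, their groups and the lists were chosen with earlier results of these data known. Positions are from GENCODE M21 (GRCm38), and promoters from RefSeq. RSEM's posterior SD covers only the splitting of reads between genes, not the error of low counts or the spread between mice.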

Additional observations from a re-analysis of the deposited data

How the results depend on the processing

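Low counts limit the members under 1 TPM and some above it. Slc25a13 had 15 counts in LFD 1 and Slc25a29 had 18 to 21 in HFD. The 3 mice a diet limit every member. Of the 27 members chosen by the rule for values, 17 kept the sign of their log2 fold change under every alternative with a value. There were at most 15 alternatives a member. The other 10 members changed sign under some alternative, with 30 sign changes in all. The rule took in the largest rises and falls of these same data, so these counts do not describe all 42 tested members. Slc25a18, Slc25a43 and Slc25a48 had no value under the filter of at least 10 counts in every sample. Members at an adjusted p under 0.05 numbered 0 in edgeR, 3 in DESeq2 and 2 with the replicate block, and DESeq2 called 1 at the study's thresholds. The replicate block (same-numbered mice) gave 8 members higher at an unadjusted p under 0.05 in place of 2, and DESeq2 gave 4. The block changed no call other than those of Slc25a34 and Slc25a42. Leaving out 1 mouse at a time, the higher count was 2 to 9, the lower count 1 to 5, members wholly above 4 to 11 and members wholly below 4 to 8. Shares of all genes are not given for these leave-one-out counts or for the unadjusted counts of the block and DESeq2. The same holds for the DESeq2 count at the study's thresholds. No result about the members is read from any of them. Without LFD 3, edgeR called 222 genes at an adjusted p under 0.05 in place of 0, and no member. With the replicate block it called 184, and DESeq2 754. The causes were not tested.

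Signs turned on log2(TPM + 0.1) for Slc25a11 (-0.11), Slc25a24 (0.049), Slc25a36 (-0.22) and Slc25a5 (-0.043), and on log2(TPM + 1) for the same 4 members (-0.11, 0.017, -0.21 and -0.042). Slc25a36 turned to -0.014 with mitochondrially encoded genes left out, Slc25a28 to 0.0097 and Slc25a40 to 0.021 with no normalization factors, and Slc25a24 to 0.18 with the replicate block. Leaving out single mice gave ranges across 0 for 20 of the 42 tested members, among those chosen by the rule Slc25a11 (-0.20 to 0.57), Slc25a18 (-0.00071 to 0.80), Slc25a22 (-0.66 to 0.35), Slc25a24 (-0.44 to 0.66), Slc25a25 (-0.76 to 0.045), Slc25a28 (-0.20 to 0.20), Slc25a3 (-0.59 to 0.12), Slc25a36 (-0.15 to 0.12), Slc25a40 (-0.17 to 0.13) and Slc25a5 (-0.22 to 0.67). The log2 ratio of Slc25a22 over Slc25a18 differed by -1.13 to 0.33 and that of Slc25a25 over Slc25a24 by -1.73 to 0.35. With the replicate block, the ratios of Slc25a4 over Slc25a5 and of Slc25a12 over Slc25a13 had an exact sign-flip p of 0.25, the smallest that 3 pairs can give.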
